A study of Mus musculus with 11 samples.

Results

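The measurements concern the Janus kinases (JAKs) and the signal transducers and activators of transcription (STATs) in mouse splenic T cells. Members were all probe sets whose platform annotation gave exactly 1 gene symbol and whose symbol was Jak1, Jak2, Jak3, Stat2, Stat3, Stat4, Stat5a, Stat5b or Stat6. The rule found 19 probe sets of these 9 genes among 45101 probe sets, of which 34958 carried 1 symbol and together covered 18194 genes. Another 2 probe sets, annotated to Jak3 together with a second gene, were left out by the rule, and further family members were not analysed here.

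RNA was hybridised to one-colour Affymetrix arrays, 1 array per sample. The 4 groups were C57BL6 wild-type naive (n = 3), C57BL6 crbn-/- naive (n = 3), wild-type activated (n = 2) and crbn-/- activated (n = 3), all from female mice aged 3 to 4 months. Crbn encodes cereblon, which selects proteins for a cullin-based ubiquitin ligase and binds thalidomide-type drugs. Naive cells were collected without stimulation, and activated cells had been kept for 12 hours with anti-CD3 bound to the plate at 5 µg/ml and anti-CD28 in solution at 1 µg/ml. All samples were splenic T cells left after other cells had been removed with magnetic beads. No group was cultured for 12 hours without the antibodies, so stimulation and time in culture cannot be told apart. The labels do not say which tissues lack Crbn or whether animals were pooled.

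Values are log2 RMA levels, on which a difference of 1 is a 2-fold change, and array medians lay between 5.84 and 5.89. Probe sets differ in how well they hybridise, so levels were not compared between genes. They were used across probe sets only to take the brightest of a gene, to sum lists of markers and to say where a probe set lay against the array medians. The T cell receptor component Cd3d had means of 12.94 and 12.96 in wild-type and knockout naive cells, and of 12.38 and 12.20 in activated cells. Crbn was lower in knockout cells by 1.13 in the naive (SE 0.085, adjusted p = 8.723e-05, limma) and by 0.90 in the activated state (SE 0.095, adjusted p = 0.004053, limma), and within each state the knockout arrays were all below the wild-type arrays. The activated Crbn call was lost with only the compared arrays (adjusted p = 0.0593) and without wild-type activated replicate 1 (difference -0.78, adjusted p = 0.0854, limma). Where this Crbn probe set lies relative to the deleted part is not known here. The arrays measured bulk RNA, in which fewer cells of a type and less RNA per cell cannot be told apart.

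As background, cytokine receptors lack kinase activity of their own and carry JAKs bound to their cytoplasmic tails. Cytokine binding activates the kinases, which phosphorylate the receptor and the STATs that dock there, and the STATs then pair, enter the nucleus and bind DNA. In T cells this route carries interleukin-2 and interleukin-7 signals mainly through STAT5, interleukin-12 through STAT4, interleukin-4 through STAT6, interleukin-6 through STAT3, and type I interferon through complexes that include STAT2. Phosphorylation sets the activity of these proteins, and the arrays measured only their transcripts.

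Promoter sequences are shown for the pair of STAT5 genes, whose transcripts are compared in detail, and for the only members with a match to an interferon-type element. RefSeq windows of 300 bases (build GRCm38.p6, 250 bases before and 50 from an annotated start) were held for all 9 genes, in 12 windows. The windows need not cover every start of a gene. Stat5a and Stat5b are neighbouring genes, each with windows at alternative starts. Those of Stat5a were chr11:100859406-100859705 and chr11:100860234-100860533, and those of Stat5b chr11:100822521-100822820 and chr11:100850532-100850831. The best match between them, of the second Stat5a window with the first Stat5b window listed, was a stretch of 55 bases with 49 identical (89.1%). The 30 bases printed from it lie at chr11:100860435-100860464 on the plus strand for Stat5a, beginning 49 bases before the start, and at chr11:100822581-100822610 on the minus strand for Stat5b, beginning 40 bases before the start. Capitals mark the 28 identical bases.
Stat5a: GCAGCTGACCTTTgAGgAGGAAATCGCTGC
Stat5b: GCAGCTGACCTTTtAGaAGGAAATCGCTGC

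Windows were searched on both strands for 4 motifs. The GAS element bound by STAT dimers, written TTCNNNGAA, was found in 0 of the 12 member windows and in 8.30% of 32841 RefSeq windows of the same length. The interferon-response-like motif GAAANNGAAA was found in 2 of the 12 and in 3.44% of all windows. These were the Stat2 window and the Stat4 window at chr1:52007990-52008289, while the other Stat4 window, at chr1:51986898-51987197, held no match. The AP-1 motif TGANTCA (7.81% of all windows) and the E-box CACGTG (7.15%) were each found in 0 of the 12. A match is a description of the letters and not evidence of binding. The Stat2 match lies within chr10:128270266-128270295 and the Stat4 match within chr1:52008133-52008162, both printed on the plus strand with the matched letters in capitals; in Stat2 the motif reads on the other strand.
Stat2: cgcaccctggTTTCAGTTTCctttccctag
Stat4: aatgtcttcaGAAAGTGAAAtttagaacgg

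Activation changed 5 of the 9 members in wild-type and 7 in knockout cells, read on the brightest probe set of each. Jak1 and Jak3 were lower and Jak2 and Stat5a were higher in both genotypes. Stat5b was lower on its brightest probe set and higher on its other one. The count of 5 was 3 without wild-type activated replicate 1, where Jak3 and Stat5b did not pass. For each gene the probe set with the highest mean was taken and tested with limma over 18194 genes, with Benjamini-Hochberg adjustment and a threshold of 0.05. In wild-type cells 5 of 9 members passed, beside 41.1% of all genes. There 2 were higher (20.2% of all genes) and 3 lower (20.9%), with a median difference of -0.03 over the members against 0.06 over all genes. In knockout cells 7 of 9 passed (43.2% of all genes), 2 higher (20.7%) and 5 lower (22.4%), with medians of -0.25 and -0.03. Passing in both genotypes with the same direction held for 5 of 9 members and for 34.3% of all genes. With 9 members these shares are counts of a few genes and are given as a description.

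**Figure D1:**
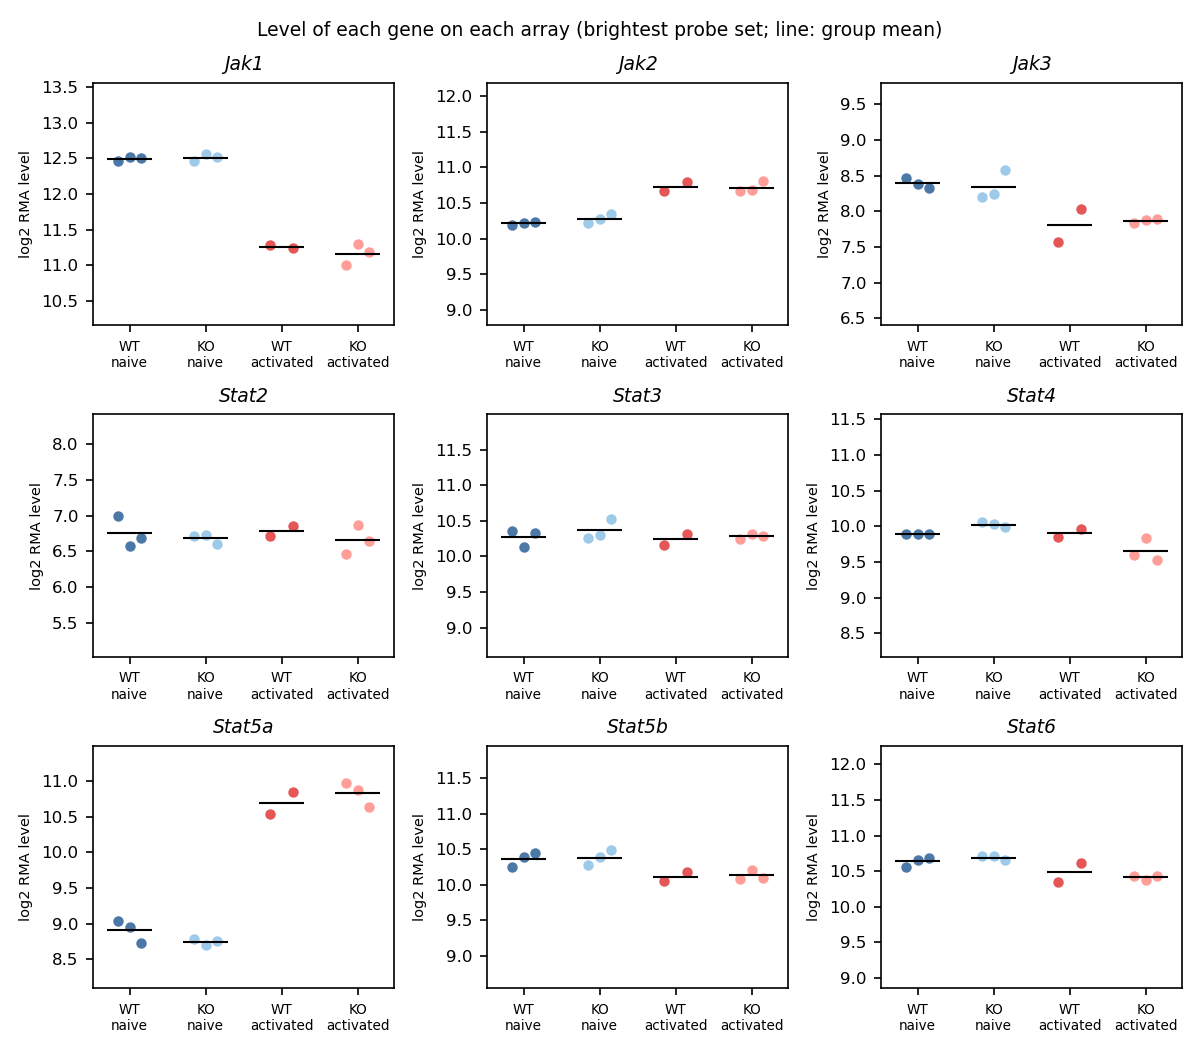
Log2 RMA level of the brightest probe set of each of the 9 genes, with 1 point per array and a line at each group mean, for wild-type and knockout cells in the naive and activated states. Jak1 drops and Stat5a rises with no overlap between states in either genotype, while the groups of Stat2 and Stat3 overlap.

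Jak1 is the kinase shared by receptors of the common gamma chain, gp130 and interferon families. It fell 2.36-fold in wild-type and 2.54-fold in knockout cells. Its brightest probe set read 12.46, 12.52 and 12.51 in the wild-type naive arrays and 11.28 and 11.24 in the wild-type activated ones. It read 12.46, 12.56 and 12.52 in knockout naive and 11.01, 11.29 and 11.19 in knockout activated arrays. Every activated array lay below every naive array, and within a state the genotypes overlapped. The difference was -1.24 in wild-type (SE 0.087, adjusted p = 1.75e-07, limma) and -1.35 in knockout cells (SE 0.077, adjusted p = 1.384e-08, limma).

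The other Jak1 probe sets moved by similar amounts. Probe set 1433803_at went from 11.33, 11.44 and 11.55 to 10.14 and 10.27 in wild-type cells and from 11.53, 11.46 and 11.40 to 9.89, 10.08 and 9.95 in knockout cells. Probe set 1433804_at went from 8.73, 8.41 and 9.03 to 7.5 and 7.47 in wild-type cells and from 9.28, 9.14 and 8.94 to 7.51, 7.82 and 7.74 in knockout cells. Neither probe set overlapped between naive and activated arrays. Their differences were -1.24 and -1.23 in wild-type cells and -1.49 and -1.43 in knockout cells, all past the threshold in the limma fit over probe sets.

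Jak2 serves receptors of interferon gamma, interleukin-12 and several growth factors, and its transcript was higher after activation. The brighter probe set rose from 10.20, 10.22 and 10.24 to 10.67 and 10.79 in wild-type cells. In knockout cells it rose from 10.21, 10.28 and 10.34 to 10.67, 10.68 and 10.80. Activated arrays lay above all naive arrays, and the spread within each group was smaller than the step between states. The increase was 0.51 in wild-type (1.43-fold, SE 0.077, adjusted p = 1.273e-04, limma) and 0.44 in knockout cells (1.36-fold, SE 0.069, adjusted p = 1.322e-04, limma). The dimmer probe set, 1421065_at, rose by 0.52 and 0.50, also without overlap.

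Jak3 binds the common gamma chain and is largely restricted to blood cells. Its single probe set under the rule read 8.47, 8.38 and 8.32 in wild-type naive and 7.58 and 8.04 in wild-type activated arrays. It read 8.19, 8.25 and 8.58 in knockout naive and 7.83, 7.87 and 7.89 in knockout activated arrays. Activated arrays lay below naive arrays in both genotypes, although the wild-type activated arrays lay far apart (SD 0.33, n = 2) and the knockout ones nearly coincided (SD 0.03, n = 3). The fall was 1.5-fold in wild-type (log2 difference -0.58, SE 0.134, adjusted p = 0.003168, limma) and 1.39-fold in knockout cells (-0.47, SE 0.12, adjusted p = 0.005208, limma). Without wild-type activated replicate 1 the wild-type difference was -0.35 and did not pass (adjusted p = 0.06367, limma).

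Stat5a, a main transducer of interleukin-2 signals, had the largest change of the 9 members in both genotypes. Its brightest probe set read 9.04, 8.96 and 8.72 in wild-type naive and 10.54 and 10.84 in wild-type activated arrays. In knockout cells it read 8.79, 8.70 and 8.75 when naive and 10.97, 10.88 and 10.64 when activated. All activated arrays lay above all naive arrays by more than the range within any group. The rise was 3.44-fold in wild-type (1.78, SE 0.123, adjusted p = 1.524e-07, limma) and 4.24-fold in knockout cells (2.08, SE 0.11, adjusted p = 6.805e-09, limma).

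The dimmer Stat5a probe set, 1450259_a_at, moved further. It went from 7.13, 6.57 and 6.45 to 8.47 and 9.12 in wild-type cells and from 6.18, 6.35 and 6.39 to 9.12, 9.23 and 8.95 in knockout cells. Naive knockout arrays were all below naive wild-type arrays at this probe set, a separation whose share over all probe sets was not counted. The fold was 4.21 in wild-type (SE 0.20 on the log2 scale) and 6.91 in knockout cells (SE 0.18). The difference between these responses was 0.71 (SE 0.268) and did not pass the threshold (adjusted p = 0.2807, limma).

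Stat5b encodes the close relative of Stat5a, and its probe sets disagreed. The brighter one, 1422103_a_at, read 10.25, 10.39 and 10.45 in wild-type naive, 10.06 and 10.17 in wild-type activated, 10.28, 10.38 and 10.48 in knockout naive and 10.08, 10.21 and 10.10 in knockout activated arrays. Activated arrays were slightly lower without overlap, by 1.19-fold in both genotypes (wild type -0.25, SE 0.089, adjusted p = 0.0402; knockout -0.25, SE 0.08, adjusted p = 0.0205, limma). The dimmer one, 1422102_a_at, read 7.07, 7.04 and 7.07 in wild-type naive, 7.27 and 7.65 in wild-type activated, 7.00, 6.94 and 6.70 in knockout naive and 7.70, 7.60 and 7.37 in knockout activated arrays. Here activated arrays were higher, by 0.40 in wild-type (SE 0.127, adjusted p = 0.0233, limma over probe sets) and 0.68 in knockout cells (SE 0.114, adjusted p = 2.263e-04).

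A direction for Stat5b therefore depends on the probe set, and whether either one also takes up Stat5a transcripts was not tested. The call of a fall was also the least secure among the members. With the mean of both probe sets the Stat5b difference was 0.08 in wild-type and 0.21 in knockout cells. The call in wild-type cells was lost without knockout naive replicate 2, knockout activated replicate 1 or 3, wild-type activated replicate 1, or naive replicate 2 or 3 of the wild type, with adjusted p-values between 0.05068 and 0.2143. In knockout cells the Stat5b call was lost without knockout naive replicate 2 or 3 or knockout activated replicate 1 or 3, with adjusted p-values between 0.05235 and 0.0894 (limma). With arrays centred on their medians Stat5b did not pass in either genotype (adjusted p = 0.145 and 0.126), nor in wild-type cells with only the compared arrays (adjusted p = 0.0855, limma). The higher reading of 1422102_a_at lost its call in wild-type cells when wild-type activated replicate 2 (0.21) or naive replicate 2 (0.39) was left out.

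**Figure D2:**
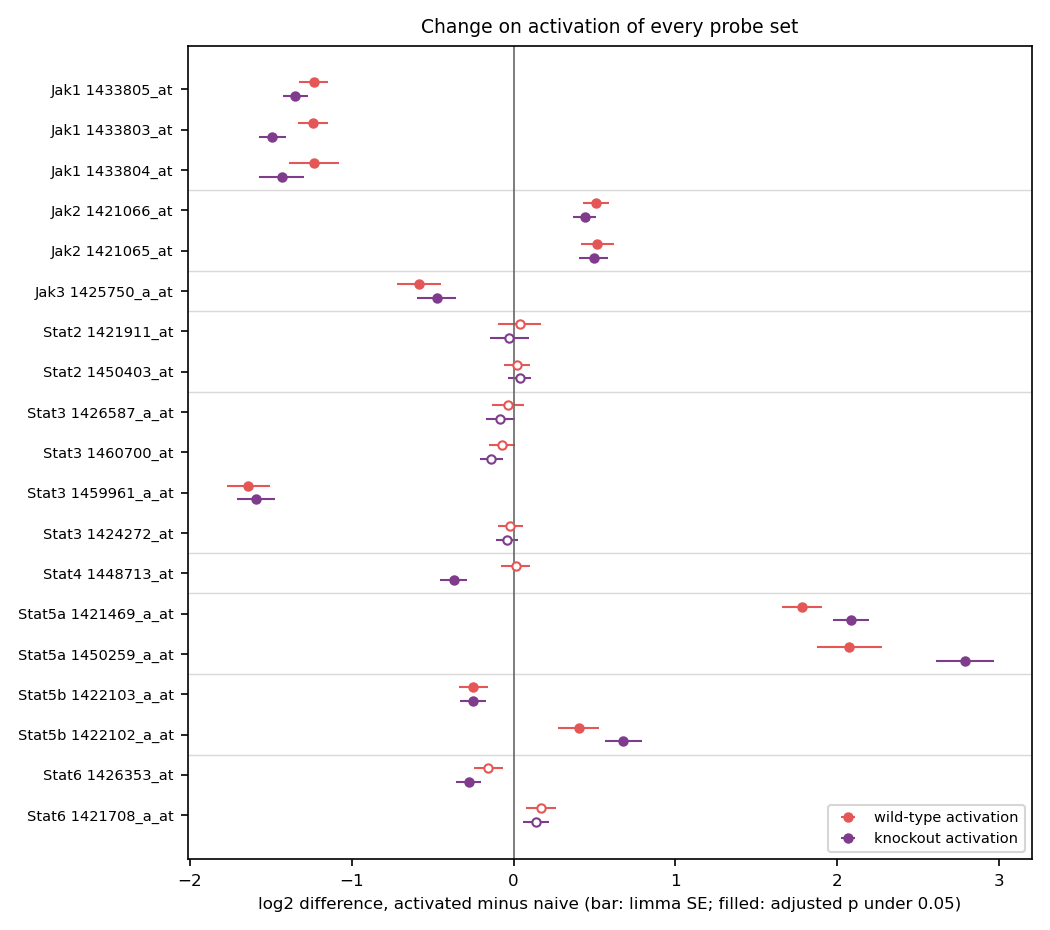
Log2 difference of activated from naive cells for each of the 19 member probe sets, wild type and knockout side by side, with bars for the limma SE and filled points for an adjusted p under 0.05. The 3 Jak1 probe sets fall together, 1 of the 4 Stat3 probe sets lies far below the others, and the Stat5b probe sets lie on opposite sides of 0.

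Stat3 transduces interleukin-6 and interleukin-10 signals, and 3 of its 4 probe sets did not pass in either activation. The brightest, 1426587_a_at, read 10.36, 10.14 and 10.34 in wild-type naive, 10.17 and 10.32 in wild-type activated, 10.26, 10.31 and 10.53 in knockout naive and 10.24, 10.32 and 10.29 in knockout activated arrays. These groups overlapped, and the differences were -0.03 (adjusted p = 0.82) and -0.08 (adjusted p = 0.516, limma). Probe set 1460700_at differed by -0.07 and -0.14, and passed in knockout cells when quantile normalization was applied again (-0.21, adjusted p = 0.0244, limma). Probe set 1424272_at lay between 5.60 and 5.73 on all 11 arrays, below every array's median, and differed by -0.02 and -0.04.

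The remaining Stat3 probe set, 1459961_a_at, behaved unlike the rest. It fell from 7.87, 8.0 and 7.84 to 6.23 and 6.30 in wild-type cells and from 7.95, 8.02 and 8.21 to 6.15, 6.64 and 6.62 in knockout cells. Naive and activated arrays were separated by more than 1 log2 unit. The fall was 3.12-fold in wild-type (-1.64, SE 0.134, adjusted p = 6.349e-07) and 3.01-fold in knockout cells (-1.59, SE 0.12, adjusted p = 1.431e-07, limma over probe sets). The files do not say which Stat3 transcripts a probe set detects, and the values of 1459961_a_at are those of that probe set, not of the gene as a whole.

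Stat4, the interleukin-12 transducer of T helper 1 cells, was lower after activation in knockout cells. Its single probe set read 9.90, 9.89 and 9.90 in wild-type naive and 9.86 and 9.96 in wild-type activated arrays, which overlapped. It read 10.06, 10.03 and 9.99 in knockout naive and 9.60, 9.83 and 9.53 in knockout activated arrays, which did not. The difference was 0.01 in wild-type (adjusted p = 0.925) and -0.37 in knockout cells (1.29-fold lower, SE 0.08, adjusted p = 0.00175, limma). Passing in one genotype and not in the other does not show that they differ, and the test of that difference is given with the genotype comparisons.

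Stat6, the interleukin-4 transducer of T helper 2 cells, changed little. The brighter probe set, 1426353_at, read 10.56, 10.66 and 10.69 in wild-type naive, 10.35 and 10.62 in wild-type activated, 10.71, 10.71 and 10.65 in knockout naive and 10.44, 10.38 and 10.43 in knockout activated arrays. The groups overlapped in wild-type cells (-0.15, adjusted p = 0.178) and not in knockout cells, where Stat6 fell by 0.28 (1.21-fold, SE 0.077, adjusted p = 0.00963, limma). Without wild-type activated replicate 2 the wild-type difference of Stat6 was -0.29 and passed (adjusted p = 0.0179). With the mean of the probe sets the knockout difference was -0.07 (adjusted p = 0.490), and with arrays centred on their medians it was -0.19 (adjusted p = 0.0648). The dimmer probe set, 1421708_a_at, differed by 0.17 and 0.14 and did not pass, except in wild-type cells without wild-type activated replicate 1 (0.30, adjusted p = 0.0278).

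Stat2, the interferon-specific member that pairs with Irf9, lay above the array medians on both probe sets and did not pass in either activation. The brighter one, 1421911_at, read 6.99, 6.57 and 6.69 in wild-type naive, 6.72 and 6.86 in wild-type activated, 6.71, 6.73 and 6.60 in knockout naive and 6.46, 6.86 and 6.65 in knockout activated arrays. The groups overlapped throughout, with differences of 0.04 (adjusted p = 0.845) and -0.03 (adjusted p = 0.895, limma). The dimmer one, 1450403_at, lay between 6.02 and 6.36 on all arrays. Every knockout array lay below every wild-type array there, a separation whose share over all probe sets was not counted. In its genotype comparisons this probe set did not pass.

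Counted by probe set, 5 of the 19 were higher and 6 lower after activation in wild-type cells, beside 18.9% higher and 18.9% lower among all 34958 probe sets with 1 symbol. In knockout cells 5 were higher (21.5% of all) and 8 lower (20.2%). Probe sets of a gene measure transcripts of the same gene and are not separate evidence.

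No member passed in any comparison of knockout with wild-type cells. On the brightest probe sets in naive cells 0 of 9 members passed, beside 0.148% of all genes, and 0 had an unadjusted p under 0.05 (2642 of all genes). The largest naive difference among these 9 was that of Stat5a, lower in knockout cells by 0.16 (adjusted p = 0.532, limma). In activated cells 0 of 9 passed (0.0605% of all genes). An unadjusted p under 0.05 was found for 1256 of all genes and for 1 member, Stat4. Its level was lower in activated knockout cells by 0.25 (unadjusted 95% interval -0.45 to -0.06, adjusted p = 0.579, limma). On the mean of both states 0 of 9 passed (0.104% of all genes), 0 of them with an unadjusted p under 0.05 (1298 of all genes). Over all 19 member probe sets the count that passed was also 0 in each of these comparisons, but some of the dimmer ones differed more.

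In naive cells 3 of the 19 probe sets had an unadjusted p under 0.05. The share over all 34958 probe sets was not counted. In the separate fit over 18194 genes, 2642 genes had such a p in naive cells. Jak1 at 1433804_at was higher in knockout cells by 0.40 (SE 0.14, adjusted p = 0.224), with overlapping arrays. Stat5a at 1450259_a_at was lower by 0.41 (SE 0.179, adjusted p = 0.318) and Stat2 at 1450403_at lower by 0.19 (SE 0.071, adjusted p = 0.252, limma over probe sets), both without overlap. In activated cells 3 of the 19 probe sets also had an unadjusted p under 0.05, Jak1 at 1433803_at (-0.23), Stat2 at 1450403_at (-0.18) and Stat4. The separate fit over genes had 1256 such genes there. On the mean of both states 2 of the 19 did, Jak1 at 1433804_at (0.30) and Stat2 at 1450403_at (-0.18), and the fit over genes had 1298 such genes. With array weights the naive difference of 1433804_at was 0.60 and passed (adjusted p = 0.0428, limma). The brightest Jak1 probe set, by contrast, differed by 0.01 in naive cells. Arrays of the genotypes also did not overlap for Stat5b at 1422102_a_at and Stat4 in naive cells. In activated cells they did not overlap for Jak1 at 1433803_at and 1433804_at, Stat2 at 1450403_at and Stat4. The share of all probe sets without overlap was not counted, so these separations are a description.

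The 95% intervals give the precision of these differences. Over the brightest probe sets of the 9 members they lay between -0.40 and 0.30 in naive cells and between -0.45 and 0.41 in activated cells. Over all 19 probe sets they were wider, from -0.80 to 0.70 in naive and from -0.45 to 0.74 in activated cells. For Jak1 the naive interval ran from -0.15 to 0.18 on the brightest probe set and from 0.10 to 0.70 on 1433804_at, so that a bound for the gene depends on the probe set. These are intervals for single probe sets and are not adjusted for their number, and they do not show that the genotypes were alike.

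Whether activation acted differently in knockout cells was tested by the interaction, the knockout response minus the wild-type response. It passed for 0 of 9 members and for 0.00% of all genes, although 2515 genes had an unadjusted p under 0.05. On the brightest probe sets Stat4 alone of the 9 did, with a difference of -0.38 (SE 0.12, adjusted p = 0.281, limma). Stat4 was 0.13 higher in knockout cells when naive and 0.25 lower when activated, without overlap between genotypes in either state. The share of all genes without such overlap was not counted. For Stat5a the interaction was 0.30 (SE 0.165, adjusted p = 0.43) on the brightest probe set and 0.71 on 1450259_a_at, the other probe set with an unadjusted p under 0.05. The intervals lay between -0.64 and 0.66 for the brightest probe sets and between -0.65 and 1.29 over all 19.

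**Figure D3:**
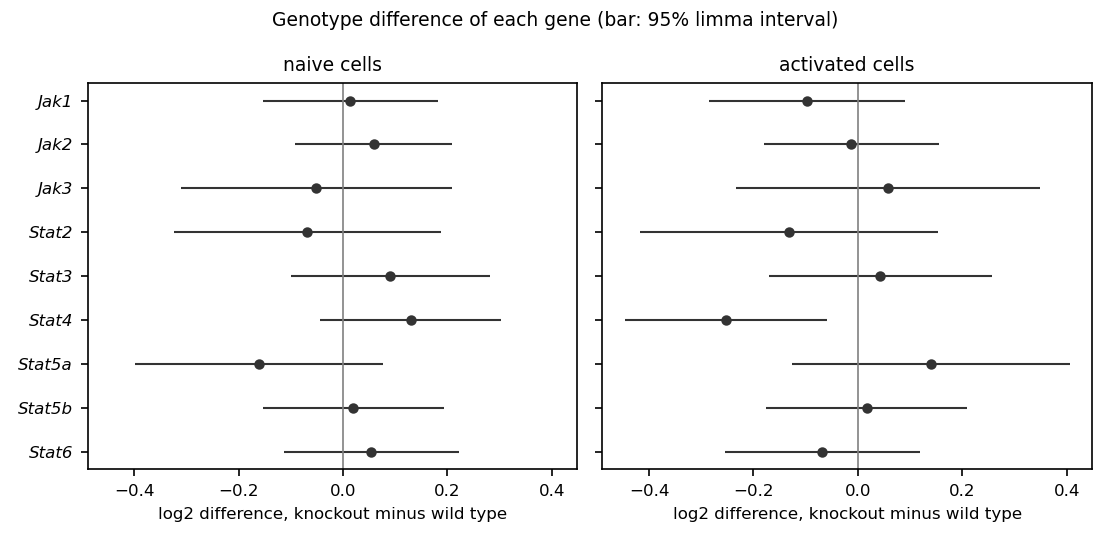
Log2 difference of knockout from wild-type cells for the brightest probe set of each of the 9 members in the naive (left) and activated (right) states, each with its 95% limma interval not adjusted for the number of genes. The point farthest from 0 is Stat5a at -0.16 in naive and Stat4 at -0.25 in activated cells, and Stat4 lies above 0 in naive and below 0 in activated cells.

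The other genes of the pathway were counted from 5 lists by role, with 104 distinct genes of which 99 were measured; the lists were chosen with earlier results of these data known. Counts are to be read against the shares over all genes, 20.2% higher and 20.9% lower in wild-type and 20.7% and 22.4% in knockout activation. Of 19 measured cytokine ligands 11 were higher and 0 lower in wild-type activation, and 14 and 0 in knockout activation. There 1 was lower without knockout naive replicate 2 or with the replicate block. Their median difference was 0.55 and 0.85, beside 0.06 and -0.03 over all genes. Il2, the main growth factor of T cells, rose by 4.65 (SE 0.220) in wild-type and 5.47 (SE 0.196) in knockout cells, and its arrays went from 6.21, 5.91 and 6.12 to 10.37 and 11.09 in wild-type cells. Ifng, the T helper 1 cytokine, rose by 3.75 and 4.22, and Lif, a ligand of gp130, by 2.59 and 3.24. All of these passed in both genotypes (limma).

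Of 24 measured receptor chains 7 were higher and 11 lower in wild-type cells and 6 and 11 in knockout cells, where the count of higher chains was 3 without knockout naive replicate 2 or knockout activated replicate 2. The interleukin-2 and interleukin-7 receptor chains Il2ra and Il7r moved in opposite directions. Il2ra, a chain of the high-affinity interleukin-2 receptor, rose by 2.90 in wild-type (SE 0.113, adjusted p = 1.869e-09, limma) and 3.37 in knockout cells. Il7r, the interleukin-7 chain, fell by 2.52 in wild-type (SE 0.135, adjusted p = 1.957e-08, limma) and 3.00 in knockout cells. Il15ra and Il12rb1, chains for interleukin-15 and interleukin-12, rose by 1.53 and 1.32 in wild-type cells. Il6ra and Il27ra, chains that signal together with gp130, fell by 2.62 and 1.01 there.

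Of 19 inhibitors 5 were higher and 3 lower in wild-type cells, near the shares over all genes, and 9 and 5 in knockout cells. Cish, a target of STAT5 that dampens interleukin-2 signalling, rose by 2.19 (SE 0.122) in wild-type and 2.57 (SE 0.109) in knockout cells. Its arrays went from 9.05, 8.85 and 8.81 to 10.94 and 11.25 in wild-type cells. Socs1, a direct inhibitor of JAK activity, rose by 1.61 and 1.81, and Socs2 by 0.88 and 1.17. Socs3, which restrains gp130 signalling, fell by 0.83 and 1.44, and Pias1, named as an inhibitor of activated STATs, by 0.71 and 0.84. Usp18, a brake on type I interferon signalling, fell by 0.80 and 0.67.

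The Usp18 call was lost when single arrays were left out. In wild-type cells this happened when either activated replicate 1 (-0.50) or naive replicate 1 (-0.51) of that genotype was left out, and in both genotypes with a variance trend and robust prior (adjusted p = 0.0911 and 0.109, limma). In knockout cells the Usp18 call was lost without knockout naive replicate 2 or 3 or without knockout activated replicate 1 or 3, with adjusted p-values between 0.07198 and 0.1648 (limma). It was also lost in knockout cells with arrays centred on their medians, and in wild-type cells with only the compared arrays or with array weights. The count of lower inhibitors in knockout cells was 3 without knockout naive replicate 2 or 3 or without knockout activated replicate 2 or 3, and 2 with arrays centred on their medians.

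Of 15 adaptors and partners 0 were higher and 11 lower in wild-type cells and 0 and 12 in knockout cells, with medians of -0.66 and -0.71. With arrays centred on their medians 1 was higher in each genotype, and in knockout cells 1 was higher without wild-type activated replicate 1 or 2 or knockout activated replicate 2. In wild-type cells 1 was also higher with averaged probe sets. The knockout count was also above 0 with averaged probe sets, with quantile normalization again and with array weights, and reached at most 2. Jakmip1, which binds JAK proteins and microtubules, fell by 2.20 and 2.64. Ncoa1, a nuclear coactivator, fell by 1.25 and 1.11. Irf9, the DNA-binding partner of Stat2, fell by 0.96 and 1.05, while Stat2 itself did not pass. All 3 passed in both genotypes (limma).

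Of 31 measured target genes 14 were higher and 11 lower in wild-type cells and 17 and 12 in knockout cells. Irf4, a transcription factor induced by T cell receptor signals, rose by 4.07 and 4.24; it, Ifng and Il2ra were the largest rises of this list. The largest falls were those of Mx1, an interferon-induced antiviral gene, by 2.09 and 1.46, Il18r1, an interleukin-18 receptor chain, by 1.94 and 2.21, and Irf7, an interferon regulatory factor, by 1.46 and 1.58. In the genotype comparisons and the interaction, 0 genes of any of the 5 lists passed.

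**Figure D4:**
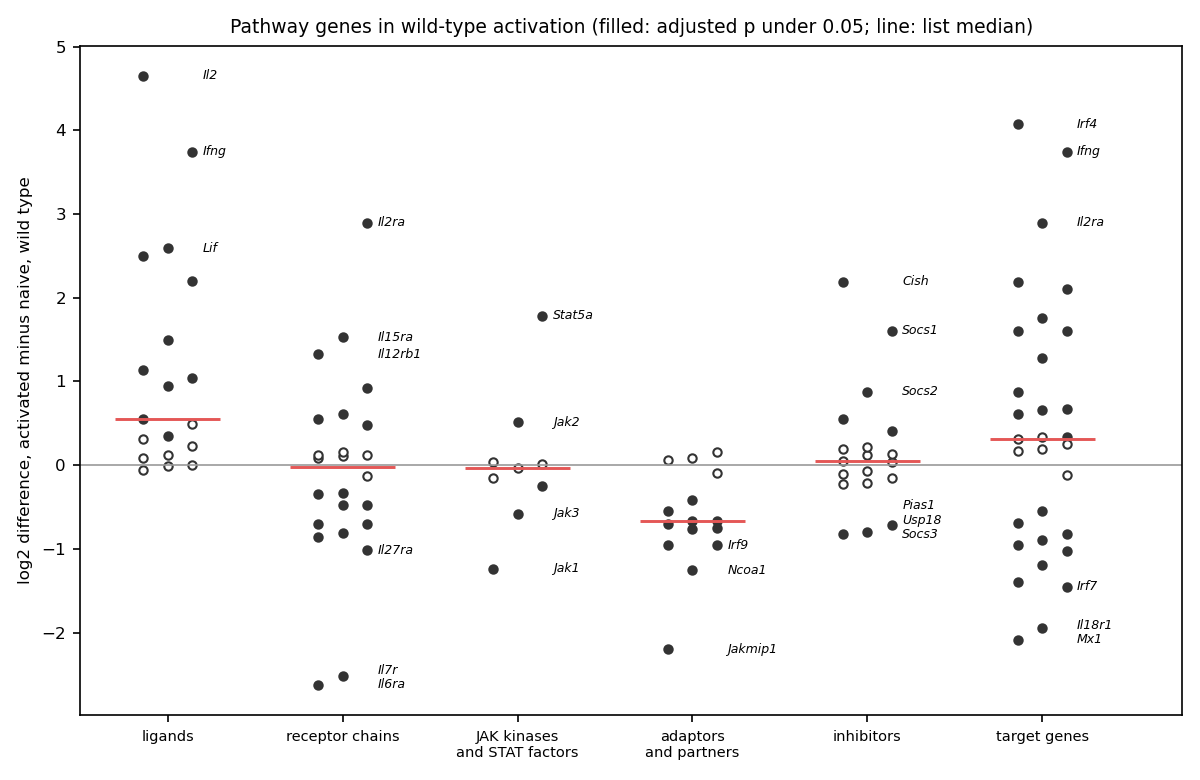
Log2 difference of activated from naive cells in wild type for the measured genes of the 5 pathway lists and for the 9 members, 1 point per gene, filled where the adjusted p is under 0.05, with a line at each median. Ligands lie mostly above 0 and adaptors and partners mostly below 0, while receptor chains, inhibitors and target genes lie on both sides.

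Some markers of other cells were lower after activation. Over all genes 20.9% were lower and 20.2% higher in wild-type activation, and 22.4% and 20.7% in knockout activation. Of 7 B cell markers 4 were lower and 0 higher in each genotype. The log2 of their summed level, to which Ighm contributed most, was 13.57 to 13.72 in wild-type naive, 11.97 to 12.36 in wild-type activated, 13.74 to 13.97 in knockout naive and 12.41 to 12.60 in knockout activated arrays. Of 8 macrophage and monocyte markers 6 were lower and 0 higher in each genotype. Their summed level was 9.87 to 10.06, 9.19 to 9.26, 9.98 to 10.58 and 9.09 to 9.37 in the same order of groups. The 7 measured T cell markers also moved, 6 lower and 1 higher in wild-type cells and 6 lower and 0 higher in knockout cells. Summed, they went from 14.82 to 14.97 in naive wild-type arrays to 14.12 to 14.21 in activated ones and from 14.94 to 14.98 to 14.01 to 14.12 in knockout ones. Between genotypes 0 of the 7 B cell markers passed. Their median difference, knockout minus wild type, was 0.42 in naive and 0.53 in activated cells. On the mean of both states 5 of them had an unadjusted p under 0.05 (1298 of all genes, limma). RMA levels do not reach 0. The part of these other cells in the falls of Jak1, Jak3, Stat5b, Stat4 and Stat6, or in the genotype comparisons, was not tested.

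Of 5 NK cell markers 1 was lower and 1 higher in wild-type cells, near the shares over all genes, and 3 lower and 1 higher in knockout cells. Of 5 dendritic cell markers 3 and 2 were lower, of 7 neutrophil markers 2 and 2, and of 6 erythroid markers 4 and 1, with 0 higher. With so few markers in a list these counts are a description, to be read against the shares over all genes. The summed neutrophil markers were 8.97 to 9.27 in wild-type naive, 8.32 to 8.36 in wild-type activated, 8.58 to 10.50 in knockout naive and 8.20 to 8.71 in knockout activated arrays.

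Knockout naive replicate 1 stood apart on some of these markers. S100a8 read 8.49 there against 6.08 and 5.24 in the other knockout naive arrays, S100a9 8.51 against 5.71 and 5.47, and Lyz2 8.60 against 6.44 and 6.77. The B cell markers Ms4a1 (10.21 against 8.86 and 9.21) and Cd22 (9.02 against 7.97 and 8.04) were also highest there. Elane (5.48 against 5.81 and 5.36), Csf1r (7.60 against 7.43 and 7.66) and Cd14 (4.77 against 4.89 and 4.91) did not set this array apart. Without that array 0 of 9 members passed in the naive genotype comparison, and Jak1 at 1433804_at differed by 0.32.

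Erythroid markers differed among the naive arrays as well, and several fell with replicate number in both genotypes. In replicates 1 to 3 Car2 read 11.79, 10.62 and 9.53 in wild-type naive and 10.38, 8.64 and 8.14 in knockout naive arrays. Klf1 read 10.17, 8.60 and 7.65, and 8.07, 6.59 and 6.38, while Hba-a1 did not fall. In naive cells the median marker difference, knockout minus wild type, was -1.33. Of the 6 markers 5 had an unadjusted p under 0.05 (2642 of all genes, limma) and 0 passed. The log2 sum of 6 such markers was 10.98 to 12.84 in wild-type naive, 9.52 to 9.65 in wild-type activated, 9.45 to 11.42 in knockout naive and 9.04 to 9.84 in knockout activated arrays. Its part in the member values was not tested.

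Genes whose pattern over the 11 arrays was most like that of Stat5a and of Jak1 were found by Pearson correlation of brightest probe sets. For Stat5a these were Erg28 (r = 0.997), Slc25a39 (r = 0.997) and Dctpp1 (r = 0.997), and 1873 genes had r over 0.95. For Jak1 they were Dock11 (r = 0.999), Tmem9b (r = 0.999) and Orai2 (r = 0.999), with 1976 genes over 0.95. The 11 points form 2 clusters, naive and activated, which fix these values, and so many genes share the step that the names single out little.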

How the data were processed

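The deposited log2 values of 45101 probe sets on 11 arrays were used as they stood; per the submitters' processing notes, GCOS, RMA and Partek were used, with versions not given in the sources used here. They ran from 2.32 to 15.0 with 0 missing. RMA as commonly run brings arrays to a common distribution, so a shift of most transcripts in one direction would not be seen. Arrays give no read depth, and the small number of arrays limits the precision.

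Symbols came from the platform's annotation: 34958 probe sets had 1 symbol, 932 several and 9211 none, and 34754 matched a gene table by Entrez number, which changed 0 symbols. Of 18194 genes 9012 had more than 1 probe set, and the one with the highest mean was taken. Group means of all 4 groups were fitted with limma 3.58.1 in R 4.3.3 (residual degrees of freedom 7, prior 5.46), with 6 comparisons and Benjamini-Hochberg adjustment over all genes, or over all 34958 probe sets in a separate fit. An adjusted p under 0.05 is called passed. The fit was tested on simulated data. Promoters were read with Biopython 1.88, with pandas 2.3.3 and Python 3.11.15, and matplotlib 3.10.9 drew the figures.

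The members, lists and tests were chosen with earlier results of these data known. Named were all members, Crbn, of each list the 3 largest rises and falls past the threshold in wild-type activation and any gene passing in a genotype comparison or the interaction, and the 3 genes most like the members of largest rise and fall. Replicates are labelled biological, and nothing says that they came from separate animals, so p-values measure the spread between these samples, which may in part be technical. Alternatives changed the probe set rule, filter, variance model, arrays in the fit, normalization, weights and replicate block, or left out each array.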

Additional observations from a re-analysis of the deposited data

Results flagged for a closer look

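At 3 member probe sets every knockout array lay on one side of the wild-type mean in naive cells and on the other side in activated cells. The share of all probe sets with this pattern is not known here. The count of 3 is therefore a description and does not set the members apart from other genes. The difference between the activation responses, knockout minus wild type, was -0.38 (SE 0.12) for Stat4 at 1448713_at, with adjusted p = 0.246 in the limma fit over probe sets. For Stat5a at 1450259_a_at it was 0.71 (SE 0.268, adjusted p = 0.281, limma). For Stat6 at 1426353_at it was -0.12 (SE 0.118, adjusted p = 0.654, limma). None of the 3 passed. With groups of 2 and 3 arrays, single arrays were not screened as outliers.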

How the results depend on the processing

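Each comparison was repeated under 20 alternatives, 11 of which left out 1 array. The count of members that passed in wild-type activation ranged from 3 to 6 when arrays were left out in turn; it was 3 without wild-type activated replicate 1, where Jak3 and Stat5b no longer passed. With the probe sets of a gene averaged, Stat5b reversed to 0.0767 in wild-type (adjusted p = 0.4913) and to 0.2133 in knockout activation (adjusted p = 0.0325), and Stat3 passed at -0.44 and -0.46, by the weight of 1459961_a_at in that mean. Of 180 member values on the gene level, 168 in wild-type and 171 in knockout activation kept their side of the threshold with no called value changing sign, and all 180 stayed short of it in each genotype comparison and in the interaction. Values that passed in neither setting changed sign in 10 and 6 of 180 cases in the activations, in 11, 12 and 28 in the naive, activated and mean genotype comparisons and in 16 in the interaction. Of 341 values of member probe sets, 324 and 336 kept their side in the activations, and the 1 that did not in a genotype comparison was Jak1 at 1433804_at with array weights. Among the pathway lists, ligands that were higher numbered 6 in place of 11 (wild type) and 7 in place of 14 (knockout) with only genes above the median level, as fewer were tested, and in wild-type cells 8 in place of 5 inhibitors were higher and 6 in place of 3 lower with averaged probe sets. Over all genes the counts of calls moved more: from 27 to between 10 and 1237 in the naive and from 11 to between 1 and 28 in the activated genotype comparison, from 19 to between 9 and 26 on the mean of both states, and from 0 to between 0 and 4 in the interaction. The labels number replicates alike in each group but do not say what a number shares, so the numbers were not taken as pairs. Deviations of same-numbered arrays had correlations from -0.30 to 0.39. These were 0.39, 0.02 and 0.31 between the naive groups and 0.27, 0.09 and 0.22 between the knockout groups. The lowest, -0.30 and -0.18, involved the wild-type activated group, whose 2 arrays deviate by equal and opposite amounts. Whether same-numbered samples share an effect was not tested. With the replicate block 5 and 7 members passed in the activations and 0 elsewhere, and 277 in place of 27 genes in the naive genotype comparison. Bounds on the genotype differences rest on 2 or 3 arrays a group.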

Other observations

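Stat5b, Stat5a and Stat3 follow one another on chromosome 11 in the RefSeq gene table (GRCm38.p6), with 346 bases between the ranges of Stat5b and Stat5a and 1636 between those of Stat5a and Stat3. On their brightest probe sets these neighbours did not share a direction in activation. Stat5a rose by 1.78 in wild-type and 2.08 in knockout cells, the brightest probe set of Stat5b differed by -0.25 in both, and that of Stat3 by -0.03 and -0.08. The other Stat5b probe set rose like Stat5a, by 0.40 and 0.68, and Stat3 at 1459961_a_at differed by -1.64 and -1.59. Whether Stat5b and Stat5a moved together therefore depends on the probe set. With 5 genes measured on each side of the 3, those that passed in wild-type activation were Naglu, a lysosomal enzyme, at -0.48 (adjusted p = 0.00396, limma) and Coasy, an enzyme of coenzyme A synthesis, at 0.38 (adjusted p = 0.00657, limma). In knockout activation Kat2a, a histone acetyltransferase, passed at 0.47, Naglu at -0.59 and Coasy at 0.52. The other neighbours shown, Hspb9, Rab5c, Hcrt, Ghdc, Cavin1, Atp6v0a1 and Hsd17b1, did not pass in either genotype, with differences between -0.19 and 0.14. The neighbourhood was chosen after member values were known, and these are descriptions of single genes.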
